A study of Mus musculus with 10 samples.

Results

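The genes described here encode the pore-forming and accessory subunits of voltage-gated sodium channels (Scn), the alpha1, alpha2delta and beta subunits of voltage-gated calcium channels (Cacna1, Cacna2d and Cacnb), the HCN channels, the sodium leak channel NALCN with UNC79 and UNC80, and the TRP channels of the C, M and V subfamilies. They were chosen by gene symbol. Of 56691 genes in the deposited table, 60 carried such a symbol, and the 54 of them with at least 10 counts in 5 or more of the 10 libraries were kept. The measurements come from the mouse ventral tegmental area (VTA), part of the midbrain where dopaminergic neurons lie. The restraint group was 5 libraries from male C57BL/6 mice, labelled wild type, after 30 min of acute restraint, a brief stressor in which the animal cannot move. The control group was 5 libraries from male C57BL/6 mice, labelled wild type, without restraint. Per the labels, all 10 libraries hold ribosome-associated mRNA enriched from dopaminergic neurons that expressed a construct named NBL10-HA. The promoter or Cre line that directs the construct to those neurons, the ages of the mice and whether each library came from 1 mouse or from several are not given in the sources used here. The p-values below therefore measure the spread between these libraries, which may be technical in part.

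Voltage-gated sodium channels carry the upstroke of the action potential, and their small beta subunits set where the pores sit and how fast they open and close. Midbrain dopaminergic neurons fire on their own at a slow, regular pace. Low-threshold L-type calcium channels, HCN channels that open on hyperpolarization, and the NALCN leak channel all pass inward current between their spikes. High-voltage-activated calcium channels of the P/Q, N and R types drive transmitter release, and TRP channels pass cations in response to receptors, temperature, oxidants or lipids.

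Totals ran from 56082358 to 86584968 counts per library. Levels are given as CPM, counts scaled to a common library total after TMM (trimmed mean of M values) adjustment, and levels of different genes are compared only as CPM per kb of exon. Th, which encodes tyrosine hydroxylase of the dopamine pathway, had 477 ± 65.3 CPM after restraint and 411 ± 78.6 CPM in controls (SD, n = 5 each), and Gfap, an astrocyte filament gene, had 2471 ± 316 CPM after restraint and 1919 ± 121 CPM in controls. RNA of other cells was thus present, and in such bulk RNA fewer cells of a type and less RNA per cell cannot be told apart. The channel gene levels below therefore cannot be assigned to dopaminergic neurons alone. On the first principal component restraint 1 lay far from the rest, with a score of 92.1 against -19.2 to 4.08 for the others. Both mates of a read pair were counted, and of the counts from 1 to 30, 80.0 to 84.8% were even after restraint and 76.8 to 79.8% in controls. These ranges did not overlap, and their part in the results was not tested.

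No channel gene rose or fell past the threshold after restraint. Of the 54 genes, 0 had an adjusted p under 0.05 by edgeR's quasi-likelihood test, where 0.0217% of the 18440 genes tested did (0.00542% higher and 0.0163% lower after restraint), and the lowest adjusted p was 0.239. DESeq2 also passed 0, with a lowest adjusted p of 0.121, where 2.03% of the genes it gave an adjusted p did. At an unadjusted p under 0.05 there were 7 channel genes, or 13%, against 11.7% of all genes tested. The 4 higher after restraint (Scn9a, Cacna1a, Hcn3 and Trpm3) made up 7.41%, against 5.64% of all genes, and the 3 lower (Cacnb4, Trpm6 and Cacnb1) 5.56%, against 6.04%. These shares lay near the background. DESeq2 gave 8 channel genes, or 14.8%, at an unadjusted p under 0.05, against 12.4% of all genes. Without restraint 1, 0 passed at an adjusted p under 0.05, with 5 higher and 2 lower at an unadjusted p under 0.05. The count of 4 higher was 1 without control 3 or without restraint 4, 2 without restraint 3, and 7 without restraint 2. In these fits the share of all genes at that threshold is not given, so the counts have no background beside them. The median log2 fold change, restraint over control, was 0.03 over the 54 genes and -0.00 over all genes, with 29 channel genes above 0 (53.7%, against 49.6% of all genes) and 25 below. The 37 genes over 10 CPM in controls ranged from -0.26 to 0.37, with a median standard error of 0.11. The other 17 ranged from -0.88 to 0.94, with a median standard error of 0.36.

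**Figure D1:**
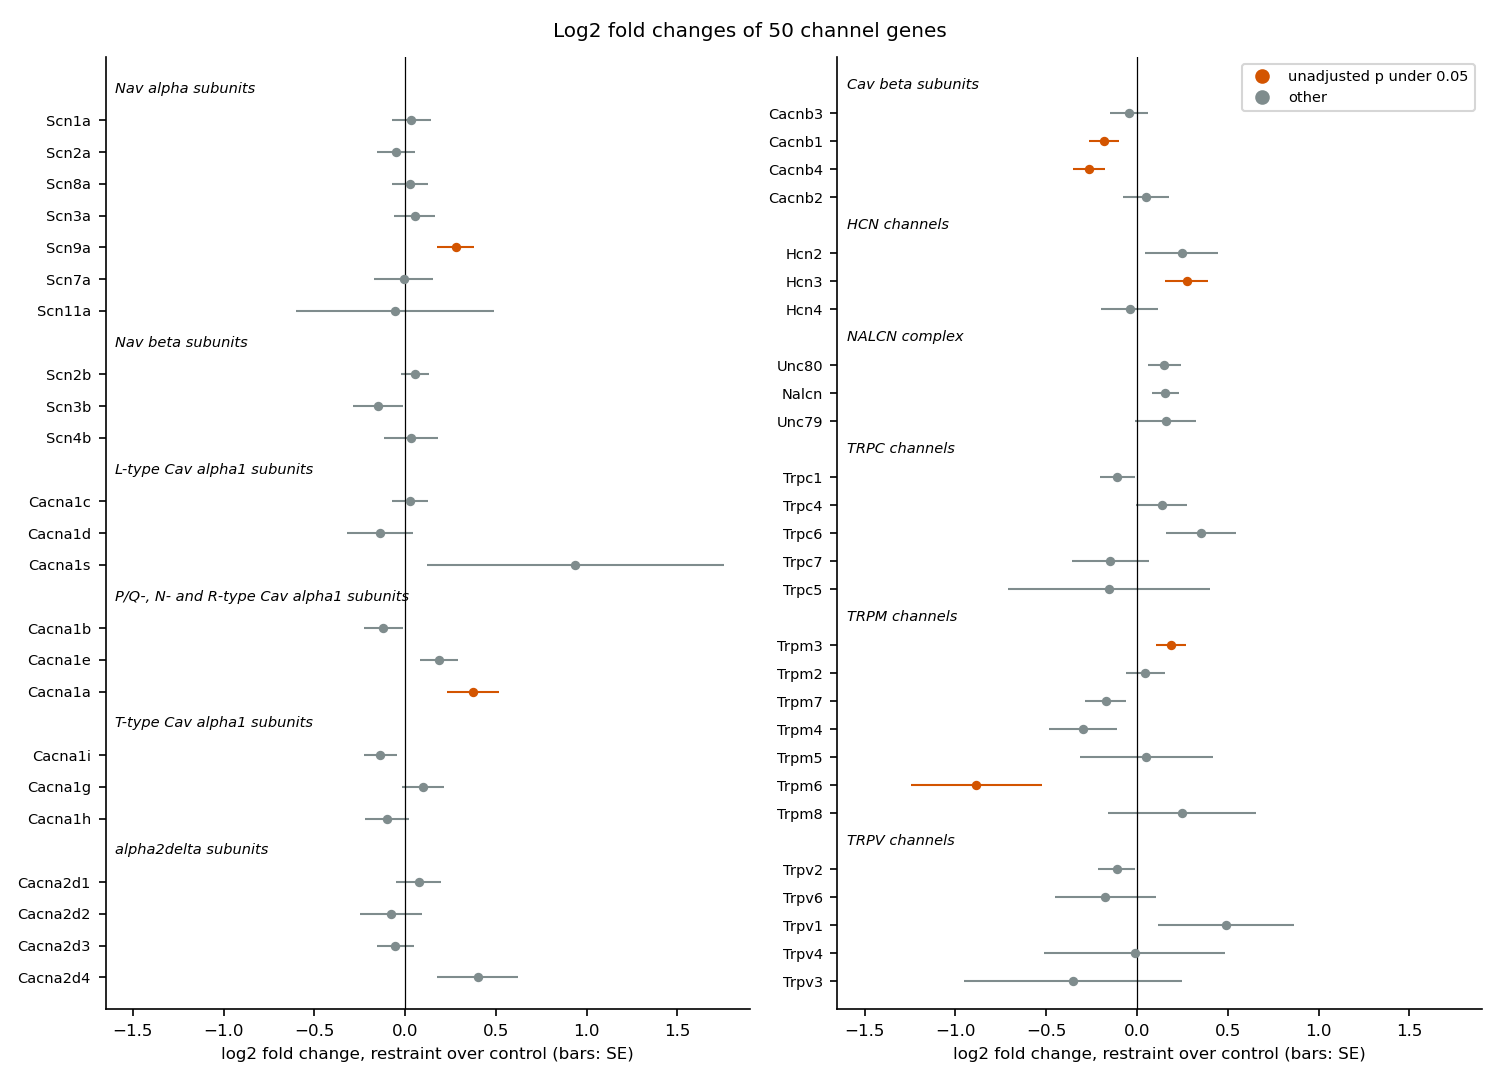
Log2 fold changes of 50 of the 54 channel genes, restraint over control, by family (points, with bars of 1 SE; n = 5 libraries in each group). The 7 coloured genes had an unadjusted p under 0.05, none had an adjusted p under 0.05, and the widest bars belong to genes with few counts, such as Cacna1s at 0.94 ± 0.82.

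The levels of these genes spanned more than 3 orders of magnitude, far more than any difference between the groups. Scn2b had 110.5 ± 5.89 CPM per kb after restraint and 106 ± 10.2 CPM per kb in controls (SD, n = 5 each). Hcn2, Scn3b, Scn4b, Cacnb3 and Cacnb1 came next, between 22.1 and 30.8 CPM per kb in controls. The genes of the large pores stood lower, with Scn1a, the highest, at 13.5 ± 1.45 CPM per kb after restraint and 13.1 ± 2.14 CPM per kb in controls. At the low end were Cacna1s, Scn11a and Trpv3, at 0.0212, 0.0584 and 0.0742 CPM per kb in controls.

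**Figure D2:**
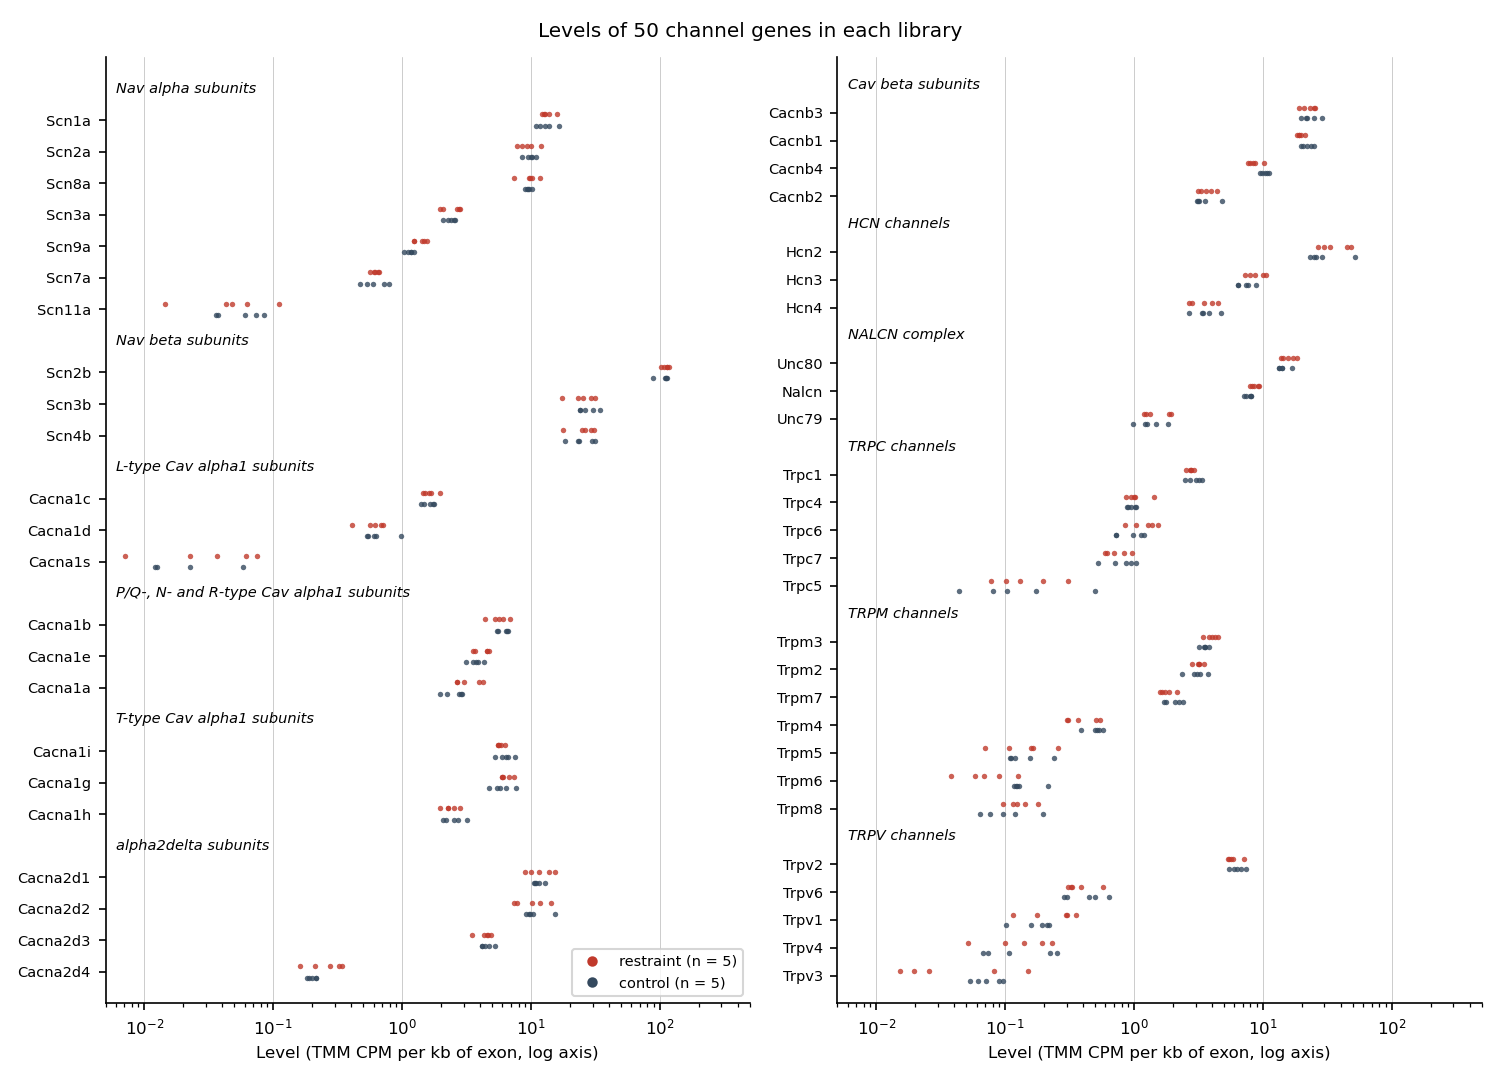
Levels of 50 of the 54 channel genes in each library, in TMM CPM per kb of exon on a log axis (restraint above control in each row, 5 points each). Genes are ordered within a family by their control mean. Of the genes drawn, Scn2b was highest at 106 and Cacna1s lowest at 0.0212 CPM per kb in controls, and the ranges of both groups overlap for every gene but Scn9a (1 control library of Cacna1s at 0 is not drawn).

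Sequences upstream of 4 channel genes are shown because they hold TTCNNNGAA, the letters that STAT factors bind, and the study is titled after STAT3. RefSeq windows of 250 bases before a transcript start (GRCm38.p6) were available for 42 of the 54 genes, 55 windows in all. On either strand, TTCNNNGAA, which reads the same on both, was in 7 of the 55 windows (12.7%), against 7.02% of 32851 windows of all genes. The 4 windows below are written 5′ to 3′ on the gene's strand, with the matching letters in capitals. They belong to genes whose values are given in full further on, as are those of Scn2b, whose window is not shown. The Scn9a window is chr2:66634963-66635212 on the minus strand, with the first letter of the match at -107 from the start. For Scn2a it is chr2:65668436-65668685 on the plus strand, at -132, one of 2 windows of that gene. For Cacna1i it is chr15:80286988-80287237 on the plus strand, at -16. For Cacna1c it is chr6:118757975-118758224 on the minus strand, at -115, one of 3 windows of that gene.
Scn9a: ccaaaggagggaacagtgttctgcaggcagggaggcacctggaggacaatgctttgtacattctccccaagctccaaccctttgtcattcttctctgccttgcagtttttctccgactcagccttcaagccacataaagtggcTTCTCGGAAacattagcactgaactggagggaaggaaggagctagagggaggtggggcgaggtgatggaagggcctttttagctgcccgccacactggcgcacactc
Scn2a: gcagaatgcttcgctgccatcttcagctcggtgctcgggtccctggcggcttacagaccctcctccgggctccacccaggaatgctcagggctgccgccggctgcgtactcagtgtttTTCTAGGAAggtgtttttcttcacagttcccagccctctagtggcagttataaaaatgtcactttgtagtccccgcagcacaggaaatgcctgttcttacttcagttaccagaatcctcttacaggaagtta
Cacna1i: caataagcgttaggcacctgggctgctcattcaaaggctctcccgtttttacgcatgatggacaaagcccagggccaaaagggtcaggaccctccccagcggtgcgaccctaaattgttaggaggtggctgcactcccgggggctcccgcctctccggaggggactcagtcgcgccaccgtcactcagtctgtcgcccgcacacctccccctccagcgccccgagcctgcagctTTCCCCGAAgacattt
Cacna1c: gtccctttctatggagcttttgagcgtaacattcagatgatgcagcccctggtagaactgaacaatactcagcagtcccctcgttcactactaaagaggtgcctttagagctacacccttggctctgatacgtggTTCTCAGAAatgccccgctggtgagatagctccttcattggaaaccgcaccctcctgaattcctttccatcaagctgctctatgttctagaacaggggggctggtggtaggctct
Of these 4 genes, Scn9a had a log2 fold change of 0.28 ± 0.10, Scn2a -0.05 ± 0.10, Cacna1i -0.14 ± 0.09 and Cacna1c 0.03 ± 0.10 (SE, here and below). The other 3 matches were in Scn2b, Trpm8 and Trpv6. The cyclic AMP response letters TGACGTCA were in 0 channel windows, against 1.55% of all windows, the AP-1 letters TGANTCA in 1 (Trpv3; 1.82% against 6.75%), and the EGR letters GCGTGGGCG in 1 (Scn7a; 1.82% against 0.536%), each searched on both strands. A match describes letters and is no measurement of binding.

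Among the pore-forming sodium channel subunits, the 3 genes that carry most sodium current in central neurons had log2 fold changes smaller than their standard errors, and of the family Scn9a had the smallest p. Scn1a, a main sodium channel gene of fast-spiking neurons, had 135, 144, 155, 176 and 139.7 CPM in restraint libraries 1 to 5, against 143, 183, 154, 131 and 122 CPM in control libraries 1 to 5. The groups overlapped widely, with a log2 fold change of 0.03 ± 0.11. Scn2a, which is abundant in unmyelinated axons, had 119, 109, 129, 152 and 100.4 CPM in the restraint libraries, against 131, 141, 122, 110.3 and 128 CPM in controls, and its log2 fold change was -0.05 ± 0.10. Scn8a, the main gene at mature axon initial segments, had 115, 153, 184, 160.0 and 153 CPM after restraint, against 143, 161, 149, 153 and 146 CPM in controls (0.03 ± 0.10). Restraint 3 held its highest value and restraint 1 its lowest, so the restraint libraries enclosed the controls.

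Scn9a, best known from pain-sensing neurons of the periphery (chromosome 2, 66310424 to 66465306, minus strand, GRCm39), had 15.8, 20.02, 18.8, 18.1 and 15.7 CPM in restraint libraries 1 to 5, against 14.2, 14.99, 13.1, 14.8 and 15.7 CPM in control libraries 1 to 5. It was the 1 channel gene whose groups did not overlap (1.85% of the 54, against 2.61% of all genes tested, 1.25% higher and 1.36% lower), and only just: the lowest restraint value was 15.73 CPM and the highest control value 15.71 CPM. Its log2 fold change was 0.28 ± 0.10 (edgeR, unadjusted p = 0.0145, adjusted p = 0.283). An antisense gene, Gm13629, shares 2.21% of its exon bases. It had 25.4 ± 7.89 CPM after restraint and 21.0 ± 1.23 CPM in controls (SD, n = 5 each; log2 0.27 ± 0.16), and the counting did not tell strands apart. Per kb in controls, Scn1a (13.1) stood above Scn2a (9.82) in 10 of 10 libraries although their ranges overlapped, and Scn2a and Scn8a (9.53) did not differ beyond their spread. Scn3a (2.37), known for its fetal expression, was lower, with no overlap. Scn9a (1.14) lay below Scn3a. Scn7a (0.623), which encodes a sodium-level sensor, was below Scn9a in 10 of 10 libraries, and Scn11a (0.0584) was lower again, neither with overlap.

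The sodium channel beta subunits are small membrane proteins that join the pores, and 0 of their 4 genes had an unadjusted p under 0.05. Scn2b, whose protein is bound to the pore by a disulfide bond and which was named after its values were seen, had 496, 477, 529, 544 and 527 CPM in restraint libraries 1 to 5, against 509, 521, 411, 523 and 514 CPM in control libraries 1 to 5. Control 3 lay below all other libraries, and the restraint values overlapped those of the 4 other controls (log2 0.05 ± 0.08). Without control 3 the log2 fold change was 0.00. Scn3b had a log2 fold change of -0.15 ± 0.14 and Scn4b of 0.03 ± 0.15. Scn3b and Scn4b, whose protein is linked to resurgent sodium current, did not differ in level beyond their spread, at 27.8 and 25.2 CPM per kb in controls.

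Of the 3 L-type calcium channel genes, 0 had an unadjusted p under 0.05. Cacna1c, the more abundant L-type gene in most of the brain, had 35.1, 32.8, 36.9, 42.8 and 31.5 CPM after restraint, against 36.0, 37.6, 30.7, 32.5 and 38.9 CPM in controls (log2 0.03 ± 0.10). Cacna1d, whose channel opens at low voltage and is known from the pacemaking of dopaminergic neurons, had 10.8, 6.16, 9.42, 10.5 and 8.51 CPM in the restraint libraries, against 8.29, 14.9, 8.17, 9.15 and 9.49 CPM in controls. Control 2 was its highest library. With all libraries its log2 fold change was -0.14 ± 0.18, and without control 2 it was 0.06, so the direction rested on that library. Cacna1c stood above Cacna1d per kb in all 10 libraries, at 1.64 ± 0.202 against 0.598 ± 0.123 CPM per kb after restraint and 1.61 ± 0.157 against 0.659 ± 0.184 CPM per kb in controls (SD, n = 5 each). Cacna1s, the skeletal muscle gene, was just inside the count minimum, with 10 counts or more in 6 libraries, most of them restraint libraries. Its counts were 34, 16, 22, 10 and 4 after restraint and 0, 6, 10, 6 and 22 in controls, so the minimum favoured the group where it was higher. It had 0.490, 0.241, 0.400, 0.149 and 0.0467 CPM after restraint, against 0, 0.0798, 0.149, 0.0824 and 0.383 CPM in controls, and the largest positive fold change with the largest error (0.94 ± 0.82). A predicted gene, Gm37759, overlaps 20% of its exon bases.

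Of the calcium channel genes of the P/Q, N and R types, Cacna1a had the largest log2 fold change among the 37 genes over 10 CPM. Cacna1a, the P/Q-type gene (chromosome 8, 85065268 to 85366875, plus strand, GRCm39), had 32.8, 32.6, 48.5, 52.1 and 37.2 CPM in restraint libraries 1 to 5, against 27.2, 35.8, 24.4, 33.8 and 35.4 CPM in control libraries 1 to 5. Restraint 3, 4 and 5 stood above every control, and restraint 1 and 2 lay within the control range. The log2 fold change was 0.37 ± 0.14 (edgeR, unadjusted p = 0.0189, adjusted p = 0.304). Cacna1e, the R-type gene, had 115, 89.5, 115, 120.1 and 93.2 CPM after restraint, against 97.6, 93.7, 78.8, 89.9 and 109 CPM in controls (log2 0.19 ± 0.10). Cacna1b, the N-type gene, had 67.7, 43.7, 59.7, 56.1 and 52.6 CPM after restraint, against 64.9, 66.3, 54.2, 54.8 and 63.9 CPM in controls, and its log2 fold change of -0.12 ± 0.11 had the other sign. The order within each of the 10 libraries was Cacna1b, Cacna1e, Cacna1a per kb. Cacna1b made up 42.8% of the 3 genes' summed level per kb after restraint (38.5 to 48.5%) and 49.5% in controls (46.6 to 51.8%), ranges that overlapped, and Cacna1a 25.0% after restraint and 20.5% in controls. These shares were not tested.

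Of the 3 T-type genes, whose channels open near the resting potential, 0 had an unadjusted p under 0.05. Cacna1i had 54.2, 54.8, 57.7, 61.7 and 55.9 CPM after restraint, against 63.4, 74.0, 51.6, 58.6 and 64.9 CPM in controls. Its restraint libraries lay within the control range (log2 -0.14 ± 0.09). Cacna1g had 74.5, 60.5, 68.1, 61.1 and 60.1 CPM after restraint, against 57.7, 64.3, 47.8, 55.3 and 77.7 CPM in controls (log2 0.10 ± 0.11). Both stood above Cacna1h in all libraries, and which of the 2 was higher varied, with Cacna1i above Cacna1g in 5 of 10 libraries.

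The alpha2delta subunits are extracellular proteins that bring calcium channels to the membrane, and 0 of their 4 genes had an unadjusted p under 0.05. Cacna2d1, a binding site of gabapentin, had 144, 111, 171, 191 and 123 CPM after restraint, against 134, 136, 142, 132 and 159 CPM in controls. The restraint libraries enclosed the controls (log2 0.07 ± 0.12). Cacna2d4, known from the retina, had 3.09, 3.21, 1.53, 2.63 and 2.01 CPM after restraint, against 1.80, 2.02, 1.73, 1.88 and 2.02 CPM in controls, with a log2 fold change of 0.40 ± 0.22 (adjusted p = 0.519, edgeR). Cacna2d1 and Cacna2d2 overlapped in level (11.3 and 10.8 CPM per kb in controls), with Cacna2d1 above Cacna2d2 in 9 of 10 libraries. Cacna2d3 was lower (4.54).

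The beta subunits, which bind the calcium channel pore from inside the cell and promote its delivery to the membrane, included the channel gene with the smallest p. Cacnb4 (chromosome 2, 52318332 to 52566843, minus strand), mutated in the lethargic mouse, had 77.4, 71.3, 68.6, 92.1 and 75.6 CPM in restraint libraries 1 to 5, against 84.8, 99.3, 96.5, 92.8 and 88.5 CPM in control libraries 1 to 5. Restraint 1, 2, 3 and 5 lay below every control, and restraint 4 was within the control range. The log2 fold change was -0.26 ± 0.09 (edgeR, unadjusted p = 0.00829, adjusted p = 0.239). An opposite-strand gene, A430018G15Rik, overlaps 16% of its exon bases and held 30 counts in all. Cacnb1, the partner of the skeletal muscle pore that is also made in brain (chromosome 11, 97892334 to 97913860, minus strand), had 83.7, 85.5, 89.8, 95.9 and 86.2 CPM after restraint, against 93.1, 107, 89.0, 99.2 and 113 CPM in controls. Control 3 lay among the restraint libraries, and 4 of the 5 restraint libraries lay below the other controls (log2 -0.18 ± 0.08, unadjusted p = 0.0385, adjusted p = 0.391, edgeR). Cacnb3, the most abundant of the family per kb, had 99.1, 83.3, 93.6, 102 and 76.3 CPM after restraint, against 86.2, 114, 88.6, 78.5 and 101 CPM in controls (log2 -0.04 ± 0.11). The summed level of the 4 genes was 54.4 ± 4.43 CPM per kb after restraint and 59.3 ± 5.86 CPM per kb in controls (SD, n = 5 each), which overlapped.

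Among the HCN genes, Hcn2 dominated and Hcn3 had the smallest p. Hcn2, whose channel is strongly opened by cyclic AMP, had 95.1, 85.9, 106, 143 and 153 CPM in restraint libraries 1 to 5, against 82.3, 164, 79.1, 74.1 and 92.2 CPM in control libraries 1 to 5. Control 2 was the highest of all 10 libraries, at 164 CPM, while restraint 1, 3, 4 and 5 stood above the 4 other controls. Its log2 fold change was 0.25 ± 0.20 with all libraries, and 0.52 without control 2 (unadjusted p = 0.0028, adjusted p = 0.171, edgeR). Without restraint 5 it was 0.12 (unadjusted p = 0.554, edgeR). Of the 10 fits with 1 library left out, 1 gave Hcn2 an unadjusted p under 0.05. Hcn3 (chromosome 3, 89053381 to 89067503, minus strand) encodes a channel that cyclic AMP affects little. It had 36.3, 30.0, 41.5, 43.5 and 32.7 CPM after restraint, against 30.4, 31.9, 26.7, 26.7 and 36.5 CPM in controls. Restraint 3 and 4 stood above every control, and restraint 2 lay below 3 of the controls. The log2 fold change was 0.27 ± 0.12 (edgeR, unadjusted p = 0.0315, adjusted p = 0.365). Pklr overlaps 17.1% of its exon bases and held 28 counts in all. Hcn4, the main HCN gene of the sinoatrial node, had 21.5, 17.4, 24.6, 27.3 and 16.3 CPM after restraint, against 20.5, 29.0, 16.3, 23.2 and 20.8 CPM in controls (log2 -0.04 ± 0.16). Hcn2 made up 69.5% of the summed level per kb after restraint and 67.8% in controls. Hcn3 lay below Hcn2 and above Hcn4 in all 10 libraries (7.33 and 3.59 CPM per kb for Hcn3 and Hcn4 in controls).

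**Figure D3:**
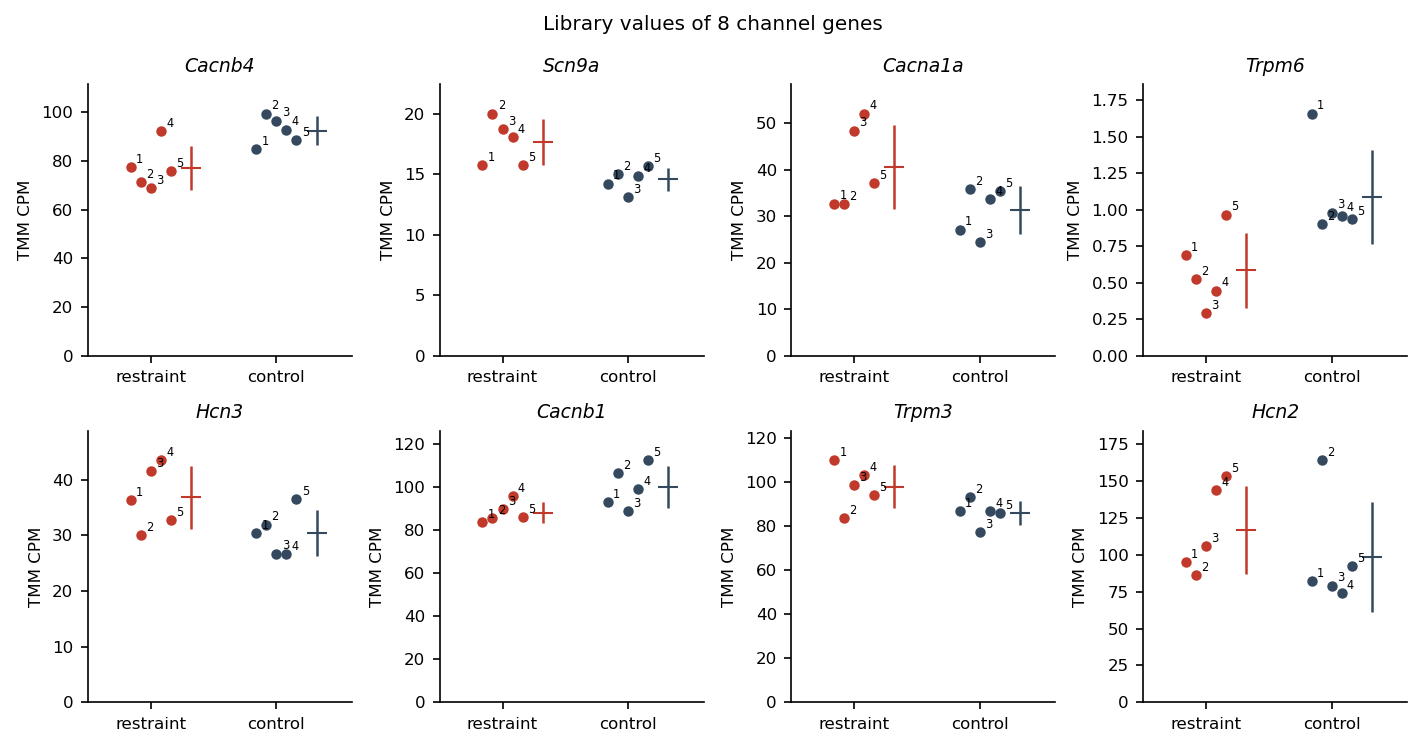
CPM of 8 channel genes in each library (points numbered by replicate, restraint left of control, n = 5 each), with the group mean and SD. They are the 7 genes with an unadjusted p under 0.05 and Hcn2, whose control 2 (164 CPM) stands above all other libraries, and Scn9a alone has groups that do not overlap, with 15.73 and 15.71 CPM at the edge.

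The 3 genes taken here for the sodium leak complex had similar log2 fold changes. These were 0.15 for Nalcn, 0.15 for Unc80 and 0.16 for Unc79, with standard errors of 0.07, 0.09 and 0.17. Nalcn, the pore, had 121, 116, 135, 136 and 124 CPM in restraint libraries 1 to 5, against 119, 108, 106, 118 and 117 CPM in control libraries 1 to 5. Restraint 1, 3, 4 and 5 stood above all controls, with unadjusted p = 0.0545 and adjusted p = 0.442 (edgeR). Unc80, a large accessory protein, had 226, 206, 247, 265 and 199.6 CPM after restraint, against 192, 240.1, 203, 203 and 191 CPM in controls, of which control 2 was far above the others. Without control 2 its log2 fold change was 0.22 (adjusted p = 0.324, edgeR), and without restraint 4 it was 0.10 (unadjusted p = 0.297, edgeR). The mRNA shares of the 3 genes were alike in both groups, which does not measure the make-up of the protein complex. Unc80 made up 61.0% of their summed level per kb after restraint and 61.0% in controls. Nalcn made up 33.2% after restraint and 33.2% in controls, and Unc79 5.79% after restraint and 5.76% in controls. Fam155a, a gene of the partner list below, is outside the symbol rule and these shares. It had 16.9 CPM per kb after restraint and 17.1 CPM per kb in controls (log2 -0.02 ± 0.09).

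The TRPC channels open downstream of phospholipase C, and 0 of their 6 genes had an unadjusted p under 0.05. Trpc1 had 22.2, 23.5, 21.8, 22.4 and 20.4 CPM after restraint, against 25.7, 20.002, 22.0, 26.8 and 24.3 CPM in controls (log2 -0.11 ± 0.10). The control range enclosed that of the restraint libraries. Trpc6, a diacylglycerol-gated channel, had 6.98, 4.31, 7.77, 6.47 and 5.25 CPM after restraint, against 5.69, 3.70, 3.66, 6.07 and 5.00 CPM in controls, and the smallest p of the family (log2 0.35 ± 0.19, unadjusted p = 0.0834, adjusted p = 0.505, edgeR). Trpc4, Trpc6 and Trpc7, below Trpc1, overlapped in level, at 0.955, 0.952 and 0.819 CPM per kb in controls. Within libraries, Trpc4 stood above Trpc6 in 4 of 10 and Trpc6 above Trpc7 in 9 of 10. Trpc5 was lowest, at 0.181 CPM per kb.

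Among the TRPM channels, the abundant Trpm3 and the rare Trpm6 had the smallest p, with opposite signs. Trpm3, a heat- and neurosteroid-gated channel (chromosome 19, 22116410 to 22972774, plus strand), had 110.1, 83.9, 98.7, 103 and 94.0 CPM in restraint libraries 1 to 5, against 86.9, 93.1, 77.5, 86.9 and 85.9 CPM in control libraries 1 to 5. Restraint 1, 3, 4 and 5 stood above every control, and restraint 2 lay among them. The log2 fold change was 0.19 ± 0.08 (edgeR, unadjusted p = 0.0406, adjusted p = 0.396). As a share of the summed TRPM level per kb, Trpm3 took 40.1 to 44.0% after restraint and 35.0 to 38.4% in controls, without overlap. That share was looked at among 54 such shares and was not tested. Trpm6, a magnesium-permeable channel fused to a kinase (chromosome 19, 18727347 to 18869875, plus strand), had 0.692, 0.528, 0.291, 0.447 and 0.969 CPM after restraint, against 1.66, 0.904, 0.982, 0.962 and 0.940 CPM in controls. Control 1 was the highest library, and restraint 5 the only restraint library within the control range. Its log2 fold change of -0.88 ± 0.36 (edgeR, unadjusted p = 0.0259, adjusted p = 0.341) was -0.68 without control 1. Trpm2, gated by ADP-ribose and oxidants, was second to Trpm3 in all 10 libraries, at 3.16 ± 0.233 CPM per kb after restraint and 3.06 ± 0.491 CPM per kb in controls (SD, n = 5 each; log2 0.04 ± 0.11). Trpm7, the relative of Trpm6, came below Trpm2 in all 10 libraries (2.03 CPM per kb in controls, log2 -0.17 ± 0.11).

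Of the TRPV channels, Trpv2 made up 87.6% of the summed level per kb after restraint and 88.5% in controls. Trpv2 had 24.5, 26.3, 25.2, 24.1 and 31.99 CPM after restraint, against 26.8, 30.3, 24.5, 28.4 and 32.9 CPM in controls. Restraint 5 stood above the other restraint libraries and within the control range (log2 -0.11 ± 0.10). Trpv1, the capsaicin receptor, had 1.30, 0.422, 0.655, 1.10 and 1.09 CPM after restraint, against 0.783, 0.585, 0.372, 0.714 and 0.801 CPM in controls (log2 0.49 ± 0.37), values that rest on few counts. The remaining genes, Trpv3, Trpv4 and Trpv6, had log2 fold changes of -0.35 ± 0.60, -0.01 ± 0.50 and -0.18 ± 0.28.

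The other 6 genes with matching symbols fell below the count minimum. Cacna1f, the L-type gene of photoreceptors, came closest, with 10 counts or more in 4 libraries. It had 0.404, 0, 0.109, 0.224 and 0.0584 CPM after restraint, against 0.0783, 0.120, 0.238, 0.137 and 0 CPM in controls. Scn4a, the skeletal muscle sodium channel gene, reached 10 counts in 3 libraries, Scn10a and Trpm1 in 1 each, and Trpv5 in 0. Trpc2 had 0 counts in every library, where all its exon bases are shared with other annotated genes, so reads there could not be assigned to it.

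Several channel genes were high or low in the same library. Control 2 held the highest value of 16 of the 54 genes (29.6%), against 14.2% of all tested genes and 24.8% of the 2448 tested genes at least as long as the channel genes' median. Control 3 held the lowest value of 14 (25.9%, against 9.59% of all and 16.1% of the long genes). Channel genes have many annotated exon bases, with a median of 8376 per gene against 3879 over all genes tested. Each library has a length slope, the change in its log2 CPM per doubling of exon length once the 10-library mean of every gene is taken away. It was highest in restraint 4 (0.097), restraint 1 (0.067) and control 2 (0.066) and lowest in control 3 (-0.071) and restraint 2 (-0.067). The median deviation of 46 channel genes over 1 CPM from their mean was 0.16 in restraint 4 and 0.15 in control 2, against -0.14 in restraint 2 and -0.15 in control 3. Restraint 1 had a median deviation of 0.0063 at the second-highest slope, so these measures did not order the libraries alike. These extremes fell in both groups, and the mean slope was 0.0127 over the restraint libraries. That of the controls, -0.0127, mirrors it by construction, because slopes are taken on deviations from the 10-library mean. With each library's length trend removed, no log2 fold change of a channel gene moved by more than 0.03, their median standard error was 0.11 in place of 0.12, and the lowest adjusted p was 0.131 (edgeR).

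**Figure D4:**
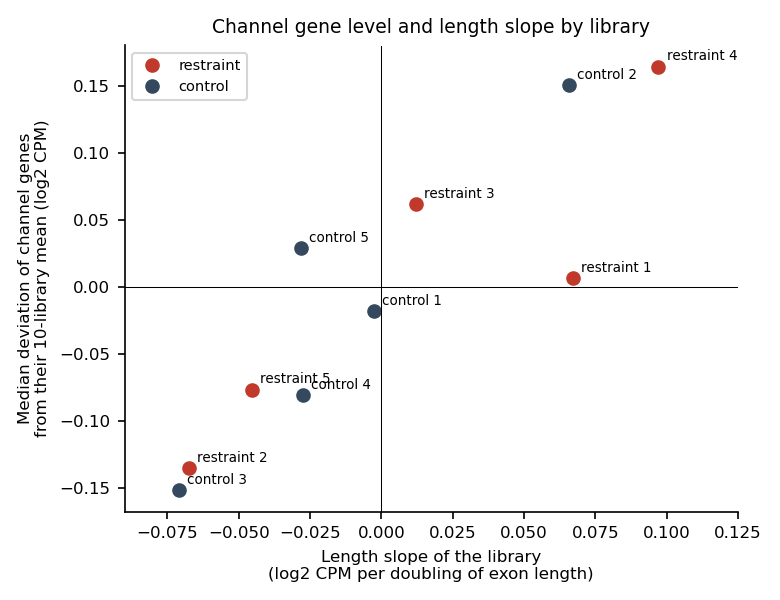
Median deviation of 46 channel genes from their mean over 10 libraries (log2 CPM) against the length slope of each library (log2 CPM per doubling of exon length), 1 point for each of 5 restraint and 5 control libraries. Restraint 4 and control 2 lie at the upper right, at 0.16 and 0.15, and restraint 2 and control 3 at the lower left, at -0.14 and -0.15. Restraint 1 lies apart from this order, with a slope of 0.067 and a median deviation of 0.0063.

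Related genes were counted from 2 lists. Of 38 genes for partners and regulators of these channels, 35 were tested, and 0 had an adjusted p under 0.05. At an unadjusted p under 0.05, 5 were higher (14.3%, against 5.64% of all genes tested) and 2 lower (5.71%, against 6.04%), together 20% against 11.7%. The median log2 fold change was 0.05, against -0.00 over all genes. Rrad, a small GTPase that binds calcium channel beta subunits and holds the channels shut, had 15.4, 11.2, 9.37, 16.8 and 22.8 CPM in restraint libraries 1 to 5, against 7.36, 8.96, 11.4, 8.41 and 9.82 CPM in control libraries 1 to 5. Restraint 1, 4 and 5 stood above all controls (log2 0.72 ± 0.20, adjusted p = 0.167, edgeR). Cabp1, a calcium sensor that tunes calcium channels, had 80.2 ± 13.3 CPM after restraint and 63.0 ± 5.67 CPM in controls (SD, n = 5 each; log2 0.35 ± 0.11). Orai2, a store-operated calcium channel, had 34.5 ± 3.39 CPM after restraint and 45.8 ± 10.2 CPM in controls (log2 -0.41 ± 0.13). Of 29 genes for other cation channels, 22 were tested and 0 had an adjusted p under 0.05. At an unadjusted p under 0.05, 2 were higher and 0 lower (9.09%, against 11.7% of all genes tested), and the median was -0.07. The smallest p values there were those of Pkd2l2 (log2 0.35 ± 0.12), Pkd2l1 (0.75 ± 0.35) and Piezo1 (-0.66 ± 0.40).

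Markers of the cell types in the sample were summed over each list. The 14 dopamine neuron markers summed to 2225 to 3073 CPM after restraint and 1996 to 2727 CPM in controls, and 7 of the 14 were higher at an unadjusted p under 0.05 (50%, against 5.64% of all genes tested; 0 at an adjusted p under 0.05, edgeR). The 10 astrocyte markers summed to 5816 to 6841 CPM after restraint and 5316 to 6085 CPM in controls, and the 9 markers of GABA neurons to 1356 to 1709 CPM after restraint and 1176 to 1565 CPM in controls. For 7 markers of glutamate neurons the sums were 459 to 599 CPM after restraint and 497 to 538 CPM in controls. Oligodendrocyte markers summed to 1527 to 2131 CPM after restraint and 1603 to 1954 CPM in controls, and those of their precursors to 109.8 to 133 CPM after restraint and 101 to 145 CPM in controls. Microglial markers summed to 22.3 to 30.4 CPM after restraint and 22.3 to 35.0 CPM in controls, and vascular markers to 15.8 to 25.4 CPM after restraint and 13.8 to 19.6 CPM in controls. Every one of these summed ranges overlapped between the groups. Single markers did not all do so: En1 of the dopamine neuron list and Gfap of the astrocyte list had all 5 restraint values above all 5 control values. At an unadjusted p under 0.05 by edgeR, 3 of 9 vascular, 3 of 9 oligodendrocyte, 2 of 7 glutamate neuron and 1 of 10 astrocyte markers were also higher, where 5.64% of all genes tested were. Of the GABA neuron, precursor and microglial markers 0 were, and 0 markers of any of the 8 lists were lower at that threshold. In these lists too, 0 markers had an adjusted p under 0.05. The part of the markers in the values of the channel genes was not tested.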

How the data were processed

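The deposited table holds whole-number read counts per gene and library, with an exon length per gene. Per the file headers, the authors ran featureCounts 2.0.3 with GENCODE M30, assigning reads to exons and summing by gene, for paired-end input and with no option for strand, pair counting or multi-mapping reads. Both mates were therefore counted, without regard to strand, and reads on exon bases shared by 2 genes were not assigned. Such shared bases occur in 15 of the 54 channel genes, at over 10% in 3 of them. The submitters' processing notes list FastQC, Trimmomatic and STAR and name mm10. GENCODE M30 belongs to GRCm39, and 51 of the 54 genes start more than 10000 bases from their RefSeq place in GRCm38, so gene coordinates are the table's (GRCm39) and promoter coordinates those of GRCm38.p6. Per the labels, libraries were made with a Universal V10 kit.

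Symbols came from GENCODE M21 names by identifier (52073 of 56691). Groups and replicate numbers came from the labels. Genes passing edgeR's filterByExpr (18440, all 54 channel genes among them) were normalized by TMM and tested with the quasi-likelihood test (edgeR 4.0.16, R 4.3.3, group as the only term), with Benjamini-Hochberg adjustment over all 18440 and a threshold of 0.05. Error bars are the SD over 5 libraries for levels and the SE for log2 fold changes. Totals were 56082358 to 86584968, and the channel genes had a median SE of 0.12. The length slope used 8547 genes with a mean log2 CPM over 4 (prior count 2). Alternatives were RLE, upper-quartile and library-size normalization, no filter on low counts, a filter at a CPM of 1 in 5 libraries, DESeq2 1.42.0, limma-voom (limma 3.58.1), robust estimation, a replicate block, removal of length trends (lowess, span 0.3), halved counts, and leaving out each library.

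The channel genes, the related lists and the marker lists were chosen with earlier results of these data known. Some genes that these rules take are not reported here. Values in every library are given for others: the most abundant gene per kb and the gene with the smallest p of each family, genes picked for their role, and up to 10 genes with an unadjusted p under 0.05. Of the 2 related lists, up to 3 genes with the smallest p each are named.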

Additional observations from a re-analysis of the deposited data

Results flagged for a closer look

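In 11 of 100 gene and group combinations (50 genes in 2 groups of 5 libraries), 1 library lay so far from the rest that the gap to its nearest neighbour exceeded 0.71 of the group's range, Dixon's critical value. That is 11%, where the nominal rate is about 1 in 20, and 6 of the 11 were control 2. The share of flags over all genes tested is not given, so the 11% has no background beside it. Control 2 also held the highest value of 14.2% of all tested genes. Control 2 was high for Hcn2 (164 CPM, others 74.1 to 92.2), Unc80 (240.1 CPM, others 191 to 203), Cacna2d2 (122 CPM, others 72.9 to 82.1), Cacnb2 (63.9 CPM, others 40.8 to 47.1), Cacna1d (14.9 CPM, others 8.17 to 9.49) and Trpc5 (2.51 CPM, others 0.219 to 0.871). Without it, the log2 fold change was 0.52 for Hcn2 (0.25 with it), 0.22 for Unc80 (0.15 with it), 0.08 for Cacna2d2 (-0.08 with it), 0.19 for Cacnb2 (0.05 with it), 0.06 for Cacna1d (-0.14 with it) and 0.70 for Trpc5 (-0.16 with it).

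Control 3 was low for Scn2b (411 CPM, others 509 to 523), with a log2 fold change of 0.00 without it. Control 1 was high for Trpm6 (1.66 CPM, others 0.904 to 0.982), with -0.68 without it. Restraint 1 was high for Trpc4 (11.5 CPM, others 6.93 to 8.11) and Trpv6 (2.28 CPM, others 1.21 to 1.52), with 0.00 and -0.36 without it. Restraint 5 was high for Trpv2 (31.99 CPM, others 24.1 to 26.3), with -0.20 without it. The part of the length slope in these values was not tested gene by gene.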

How the results depend on the processing

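In all settings tried, 0 channel genes passed at an adjusted p under 0.05, with a lowest adjusted p of 0.0794 (Cacna1a, no filter on low counts). Over all genes, 4 passed in the test as reported, 17 with library size only, 302 with no filter on low counts, 302 with DESeq2, 0 with robust estimation, 68 with the length trend removed, and 0 to 92 when 1 library was left out (92 without restraint 5). No pairing by replicate number was seen: deviations of same-numbered libraries correlated at -0.164 to 0.027, and 0 of 5 correlated best with their own number. Such correlations cannot exclude that libraries were handled in pairs. With the replicate block, 0 genes passed, and 2 channel genes were higher at an unadjusted p under 0.05, against 4 without it. Leaving out 1 library gave 1 to 7 higher and 2 to 4 lower at that threshold, and a median log2 fold change of -0.018 to 0.073. These counts, and those with the replicate block, have no share of all genes at that threshold beside them. Of 584 values of 28 named genes over 21 settings, 569 kept their sign and side of the threshold and 15 changed sign, all with 1 library left out: Cacna1c ranged from -0.0393 to 0.0646, Cacna1d from -0.2066 to 0.0551, Cacna2d1 from -0.0290 to 0.1565, Cacnb3 from -0.1052 to 0.0433, Hcn4 from -0.1360 to 0.0873, Scn1a from -0.0331 to 0.1329, Scn2a from -0.1386 to 0.0053 and Scn8a from -0.0545 to 0.1189. The cause was not tested. Cacnb4 and Scn9a had an unadjusted p under 0.05 in 10 of 10 such fits, Cacna1a and Trpm6 in 7, Hcn3 in 6, Cacnb1 in 4 and Trpm3 in 3. Of the other channel genes, Trpc5 had a log2 fold change of -0.16 as reported and 0.24 with the replicate block, and with limma-voom Scn7a had 0.014, against -0.0081 as reported, and Trpv4 0.024, against -0.012. Several of these other genes also changed sign with 1 library left out, and not all are named here. Trpm2 ranged from -0.0267 to 0.1308, Scn4b from -0.0729 to 0.1428 and Trpv4 from -0.2532 to 0.2919. The median SE was 0.36 for the 17 genes up to 10 CPM in controls, against 0.11 for the 37 above it, and 0.32 against 0.11 with halved counts.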
